A study of Mus musculus with 463 samples.

Results

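Bone morphogenetic proteins (BMPs) and the genes that answer to them were followed in the ventral and dorsal pancreas of mouse embryos. The 10 genes were taken by symbol from the read-count tables, which list 40824 genes: the ligands Bmp2, Bmp4 and Bmp7, the extracellular regulator Bmper, the inhibitory Smads Smad6 and Smad7, and the inhibitors of differentiation Id1, Id2, Id3 and Id4. All 10 passed the filter on low counts in both data sets. They were listed by function, though with earlier results of these data known.

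Bulk RNA-seq was made from sorted cells in 8 groups of 2 libraries: Pdx1-GFP+ cells of the dorsal and ventral buds at E10.5, Ngn3-GFP-high and Ngn3-GFP-low cells of the dorsal and ventral pancreas at E14.5, and Ins1-RFP+ cells of both sides at E17.5. Smart-seq2 was run on 447 single cells. Pdx1-GFP+ cells came from dorsal (31) and ventral (44) buds at E9.5 and from dorsal (27) and ventral (59) buds at E10.5. Pdx1-GFP-high cells (28 dorsal, 39 ventral) and Pdx1-GFP-low cells (40 dorsal, 39 ventral) were also sorted at E10.5. Ventral Pdx1-GFP-low cells were in addition split by the surface marker Liv2 (54 Liv2+, 59 Liv2-), and 23 Liv2+ cells came from the liver bud. A further 4 cells came from E15.5 liver, sorted as tdTomato+ in embryos with Pdx1-Cre and ROSA26-tdTomato, an allele that marks a cell and its descendants once Pdx1-Cre has acted. The reporters follow Pdx1, Ngn3 (Neurog3) and Ins1, so each sort is set by the reporter's activity and not by position or lineage alone. The labels give no genotype beyond these alleles, and do not say how many embryos were pooled.

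BMP ligands bind paired type I and type II receptors, which phosphorylate Smad1, Smad5 and Smad9. These enter the nucleus with Smad4 and switch on target genes, among them the Id genes, whose products bind basic helix-loop-helix factors and keep them off DNA, and Smad6 and Smad7, which feed back on the receptors. In the foregut, BMPs from the septum transversum mesenchyme beside the heart are known to favour liver over pancreas in the ventral endoderm, and Neurog3, a basic helix-loop-helix factor, starts the endocrine program.

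Promoter sequence is shown for 3 members that differed between sides at E10.5 and whose window holds a word tied to Smad binding. RefSeq promoter windows (GRCm38.p6, 250 bases before to 50 after the start) were found for 6 of the 10 members. Words tied to Smads were searched on both strands: the palindrome GGCGCC, known from BMP-responsive elements, the palindrome GTCTAGAC, bound by Smad proteins, and CAGAC with its reverse GTCTG, the core of the Smad box, which is not held within the other words. Capitals mark GGCGCC or GTCTAGAC. The Smad6 run (chr9:64022056-64022309, minus strand, 254 bases) ends 4 bases after the start, the Id4 run is chr13:48260866-48261115 (plus strand, 250 bases), and the Id2 run is a stretch of 26 bases (chr12:25096308-25096333, minus strand).
Smad6: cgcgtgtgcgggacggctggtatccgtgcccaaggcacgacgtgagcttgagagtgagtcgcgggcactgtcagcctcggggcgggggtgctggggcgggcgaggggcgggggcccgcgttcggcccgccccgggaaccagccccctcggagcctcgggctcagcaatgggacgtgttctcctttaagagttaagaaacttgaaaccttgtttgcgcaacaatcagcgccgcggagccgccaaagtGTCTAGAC
Id4: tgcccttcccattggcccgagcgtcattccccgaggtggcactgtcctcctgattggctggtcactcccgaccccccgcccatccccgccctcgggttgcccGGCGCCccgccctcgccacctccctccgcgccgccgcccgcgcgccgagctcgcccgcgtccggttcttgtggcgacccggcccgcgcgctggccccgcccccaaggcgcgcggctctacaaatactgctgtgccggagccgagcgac
Id2: aggccccctgGGCGCCcagcgcacac
GTCTAGAC starts at -4 in Smad6 and was found in 70 of 32851 promoter windows (0.213%). GGCGCC starts at -148 in Id4 and at -231 in Id2 and was found in 3898 windows (11.9%). CAGAC or GTCTG, present in 16292 windows (49.6%), was found in Id3 at -167 and -68. A match describes the letters in the window and shows no binding.

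In GRCm38 (GENCODE vM21), Bmp2 lies on chromosome 2 (133552159 to 133562885), as do Id1 (152736251 to 152737410) and Bmp7 (172868012 to 172940321). Bmper (23223076 to 23485200) and Smad6 (63953076 to 64022059) lie on chromosome 9. Id3 is on chromosome 4 (136143497 to 136145755), Id2 on chromosome 12 (25093799 to 25097140), Id4 on chromosome 13 (48261228 to 48266026) and Bmp4 on chromosome 14 (46383520 to 46390669). Id4 shares 1396 bases with A330033J07Rik and 1364 with Gm49291 on the other strand, and Bmp4 shares 1764 bases with Gm15222 and 89 with Gm15217. The strand setting of the counting is not given in the sources used here, so reads of these pairs cannot be told apart.

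Depth ran from 8779418 to 24551520 reads on genes in the bulk libraries and, per single cell, from 201191 to 1738015 (median 1064163). Cells were summed by the numbered set in their label, and the 37 sets of 3 or more cells in 11 groups served as replicates. What a set or bulk library number stands for is not in the labels (embryo, litter, plate or day), and p-values therefore measure only the spread between these samples, which may be technical. Most cells had epithelial RNA: 439 of 447 held Epcam or Cdh1 at 10 CPM or more (a gene's reads per 1e6 reads on genes). Set 3 of the dorsal Pdx1+ cells at E10.5 went against its label: it held Pdx1 at 3.63 CPM and summed endocrine markers at 41970 CPM, against 7774 and 196.3 CPM in sets 1 and 2. The tests between groups, the correlations and the likeness values that use it are given with and without it. Set 6 of the ventral Pdx1-low cells (mesenchyme markers 2258 CPM, against 90.15 to 194.0 in the other sets) and set 3 of the ventral Pdx1+ cells (1463 against 213.1 and 406.7) also stood apart. In bulk samples, fewer cells of a type and less RNA per cell cannot be told apart.

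In the E10.5 bulk libraries, 7 of the 10 genes differed between the ventral and the dorsal bud. Bmp2, Bmp4, Smad6, Smad7 and Id2 were higher in ventral cells, and Bmp7 and Id4 were lower. Of all 17690 genes tested with edgeR, 25.3% passed (adjusted p under 0.05), 10.6% as higher and 14.7% as lower. The median log2 fold change, ventral minus dorsal, was 0.88 over the members and -0.03 over all genes. DESeq2 also called 7 members.

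Among the ligands, Bmp2 stood at 1.18 and 0.502 CPM in the dorsal libraries and at 11.8 and 8.89 CPM in the ventral ones. Its ventral libraries were both above the dorsal ones (adjusted p = 9.55e-06), by 3.62 on the log2 scale (SE 0.40). Bmp4, which signals through the same receptors, stood at 3.54 and 2.11 CPM in dorsal and 15.9 and 10.6 CPM in ventral libraries (log2 fold change 2.23, SE 0.52, adjusted p = 0.00603). The groups did not overlap, but the call was lost without dorsal library 2 (1.90, adjusted p = 0.0878) or ventral library 1 (1.90, adjusted p = 0.0513). Bmp7, a ligand of many epithelia, went the other way: 159 and 171 CPM in dorsal against 114 and 118 CPM in ventral libraries (log2 fold change -0.51, SE 0.08, adjusted p = 0.000222). Bmper, a secreted protein that binds BMPs and modulates them, was low, at 0.322 and 0.703 CPM in dorsal and 1.44 and 0.665 CPM in ventral libraries. Its groups overlapped and its log2 fold change of 0.98 (SE 0.68) did not pass (adjusted p = 0.347).

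Both inhibitory Smads were higher on the ventral side. Smad6, which blocks Smad1 from pairing with Smad4, stood at 12.6 and 14.1 CPM in dorsal and 33.7 and 29.9 CPM in ventral libraries (log2 fold change 1.25, SE 0.25, adjusted p = 0.00203). Smad7, which acts on receptors of the BMP and TGF-beta branches, stood at 13.7 and 11.2 against 31.8 and 32.5 CPM (log2 fold change 1.37, SE 0.15, adjusted p = 7.71e-06).

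The Id genes did not move together. Id2 was higher in ventral libraries, at 374 and 354 CPM against 212 and 212 (log2 fold change 0.78, SE 0.11, adjusted p = 0.000126). Id4 was lower, at 5.03 and 3.74 CPM against 9.11 and 8.94 (log2 fold change -1.05, SE 0.26, adjusted p = 0.00855), a call lost without ventral library 2 (-0.85, adjusted p = 0.0902). Id1 stood at 60.3 and 53.7 CPM in ventral and 47.7 and 42.5 CPM in dorsal libraries and did not pass (log2 fold change 0.34, SE 0.19, adjusted p = 0.232), although its groups did not overlap. Id3 stood at 88.5 and 82.3 against 88.5 and 77.3 CPM, and differed by 0.04 on the log2 scale (SE 0.16, adjusted p = 0.9).

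RNA of other tissues moved with this comparison. The summed CPM of 7 cardiac muscle markers was 1269 to 2210 in ventral and 7.13 to 26.57 in dorsal libraries, that of 11 mesenchyme markers 899.3 to 1338 against 354.7 to 370.5 (1 of the 11 at 0 in dorsal libraries), that of 10 hepatoblast markers 1822 to 2248 against 302.5 to 365.8, that of 2 biliary markers 259.9 to 267.0 against 17.07 to 19.39, that of 8 pancreatic progenitor markers 511.2 to 523.8 against 1178 to 1227, and that of 9 endocrine markers 45.96 to 88.25 against 3611 to 3771. Endothelial (36.16 to 72.55 against 11.75 to 19.29) and blood markers (307.1 to 487.5 against 155.3 to 179.0) were also further up on the ventral side. Their part in the member differences was not tested. In the single cells, cardiac markers summed to at most 100.7 CPM in any set. There the mean of Bmp7 at E10.5 was not lower on the ventral side. It was 100.1 against 97.6 CPM in Pdx1+, 276.2 against 171.4 in Pdx1-high and 82.99 against 6.738 in Pdx1-low cells. Smad6, not called in Pdx1+ cells, went from 0.58 to -1.50 on the log2 scale without ventral set 3. Bmp2, Bmp4, Smad7, Id2 and Id4 are given below.

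**Figure D1:**
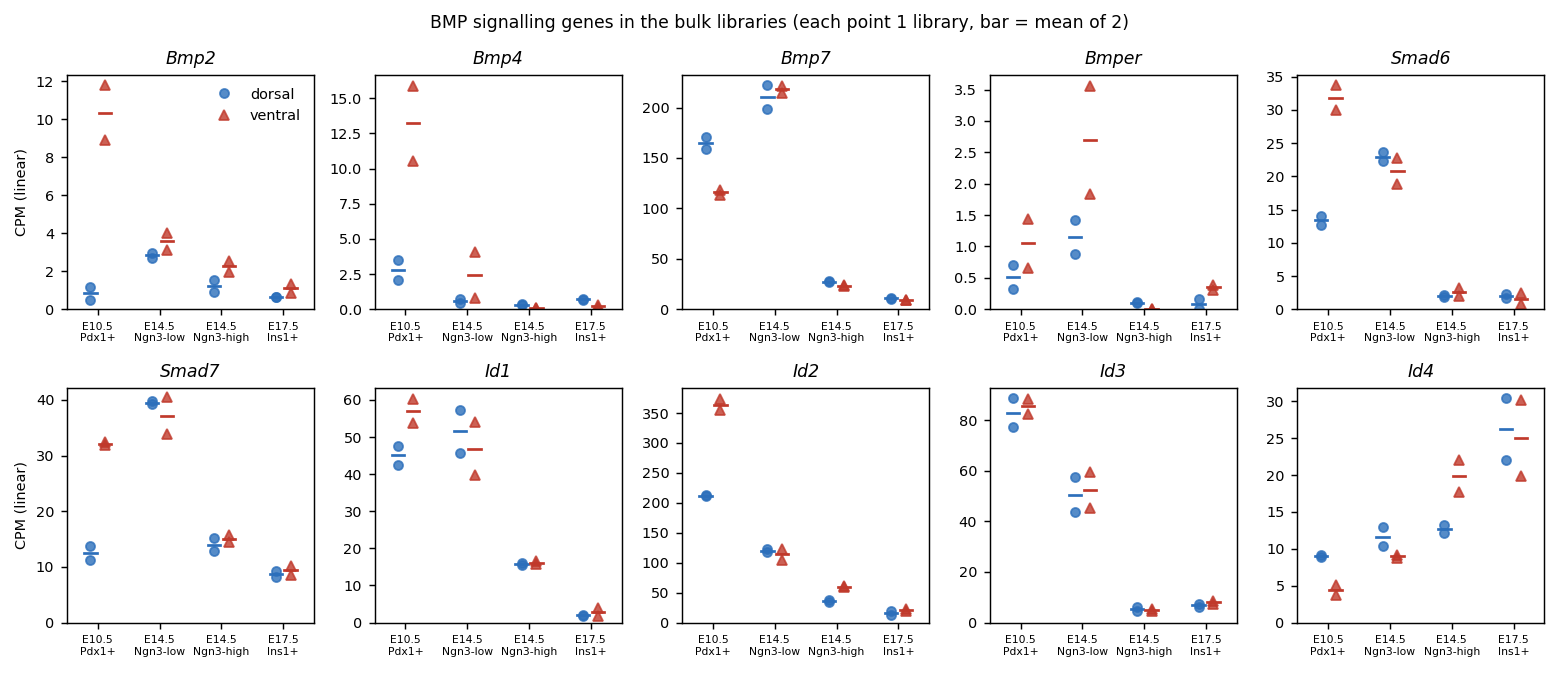
CPM (linear axis from 0) of each gene in the 16 bulk libraries, by sort on the horizontal axis, with dorsal libraries as blue circles, ventral libraries as red triangles and a bar at the mean of 2. At E10.5 the ventral points of Bmp2 (11.8 and 8.89) and Smad7 (31.8 and 32.5) lie above all dorsal points, and the Ngn3-high and Ins1+ libraries are low for Bmp7, Smad6, Id1, Id2 and Id3 while Id4 is highest in Ins1+ libraries.

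Other genes of the pathway also differed at E10.5. The list of 44 held 38 that were tested, of which 9 were higher and 5 lower in ventral libraries (36.8%, beside 25.3% of all genes, median log2 fold change 0.06). Among ligands, Gdf2 (BMP9) stood at 8.48 to 10.4 CPM in ventral against 0.301 to 0.322 CPM in dorsal libraries (adjusted p = 7.31e-05, log2 fold change 4.88, SE 0.57), and Bmp5 at 4.41 to 7.39 against 0.502 to 0.643 CPM. Bmp10, a ligand of the developing heart, was at 1.16 to 1.74 CPM in ventral libraries and had 0 reads in dorsal ones. Bmp6 was lower, at 2.57 to 3.08 against 6.86 to 7.63 CPM.

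Of 10 receptors and co-receptors, Acvr1 (log2 fold change 0.60) and Acvr2a (0.33) rose and Rgma, a co-receptor, fell by 0.80. Smad9, a Smad that BMP receptors phosphorylate, was higher (5.23 to 5.90 against 0.904 to 2.04 CPM). Of the 12 secreted or membrane inhibitors tested, 1 was higher and 3 were lower in ventral libraries: Chrd (chordin) stood at 14.6 to 15.7 CPM in dorsal and 3.18 to 3.57 CPM in ventral libraries (log2 fold change -2.16, SE 0.29, adjusted p = 6.74e-05), Cer1 fell by 3.17 and Twsg1 by 0.47. Bambi, a decoy receptor, rose by 0.35. The target genes Msx1 (1.58 to 3.90 CPM, from 0.603 to 0.643 in dorsal libraries) and Msx2 (2.41 to 3.80 CPM, from 0.301 to 0.536) were higher.

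**Figure D2:**
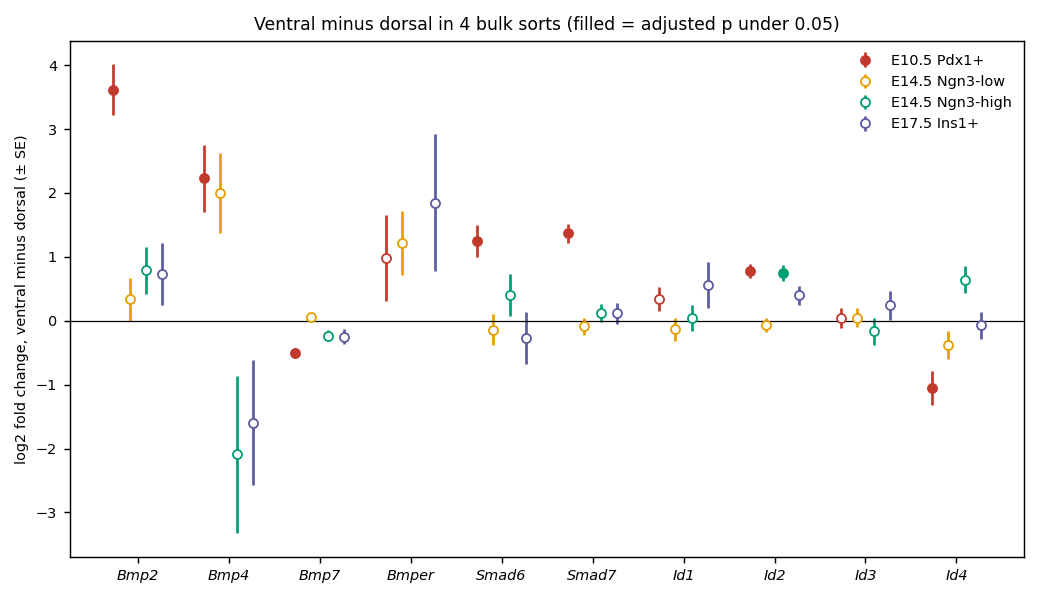
Log2 fold change (ventral minus dorsal, ± SE) of each gene in the 4 bulk sorts, with filled points for adjusted p under 0.05. Filled points occur for 7 genes at E10.5 and for Id2 alone in a later sort (Ngn3-high), and Bmper in Ngn3-high cells is not drawn because its ventral libraries had 0 reads.

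In the later sorts few members passed between the sides. In Ngn3-high cells Id2 was the 1 member called, at 59.6 and 60.3 CPM in ventral and 34.3 and 37.3 CPM in dorsal libraries (adjusted p = 0.0111, log2 fold change 0.75, SE 0.12), where 0.486% of all genes passed. DESeq2 also called 1 member, and 4 had unadjusted p under 0.05, beside 1049 of all 17690 genes. The Id2 call was lost without any 1 of the 4 libraries (0.68 to 0.81, adjusted p from 0.0837 to 0.244). Id4 stood at 22.1 and 17.8 against 13.2 and 12.2 CPM and did not pass (adjusted p = 0.456).

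In Ngn3-low cells edgeR called 0 of 10 members, beside 0.017% of all genes, and DESeq2 called 0. Unadjusted p was under 0.05 for 2 members, beside 625 of all 17690 genes. Bmp4 there stood at 4.08 and 0.77 CPM in ventral and 0.743 and 0.438 CPM in dorsal libraries, so that ventral library 1 set the difference (2.01 on the log2 scale, SE 0.63, adjusted p = 0.913). In Ins1+ cells 0 of 10 members passed with edgeR, beside 0.0283% of all genes, and 0 with DESeq2. There 1 member had unadjusted p under 0.05, beside 546 of all 17690 genes. Of the 38 other pathway genes, 0 passed in any of the 3 later sorts.

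Whether the E10.5 side difference exceeded the mean of the later ones was tested directly. The same 7 genes passed, 5 in the ventral and 2 in the dorsal direction, where 18.3% of all genes passed (7.12% and 11.2% by direction). The excess was 3.00 for Bmp2 (SE 0.47, adjusted p = 0.000357), 2.79 for Bmp4 (adjusted p = 0.0208), 1.25 for Smad6 (adjusted p = 0.0126), 1.32 for Smad7 (SE 0.17, adjusted p = 6.28e-05), 0.42 for Id2 (adjusted p = 0.041), -0.36 for Bmp7 (adjusted p = 0.0147) and -1.12 for Id4 (adjusted p = 0.0147). Bmp4 had few reads later, 2 ventral and 11 dorsal in Ngn3-high and 5 and 15 in Ins1+ libraries. These lean dorsal and add to its excess, whereas its Ngn3-low libraries leaned ventral. Only the calls of Bmp2 and Smad7 held without each library in turn. The count fell to 4 without dorsal E10.5 library 1, to 2 without dorsal library 2 and to 3 without ventral library 1. The Id2 call was also lost without ventral E10.5 library 2 or any 1 of 8 later libraries.

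From E10.5 Pdx1+ to E14.5 Ngn3-low cells, with both sides averaged, 4 members rose and 3 fell, where 68% of all genes passed (33.1% higher, 34.9% lower). Bmp7 rose from 114 to 171 CPM over the 4 E10.5 libraries to 199 to 222 CPM (log2 fold change 0.63, SE 0.05, adjusted p = 1.24e-07). Smad7 rose by 0.94 (SE 0.10, adjusted p = 1.05e-06) to 33.8 to 40.5 CPM, and Id4 by 0.71 (SE 0.17, adjusted p = 0.00214). Bmper rose by 1.26 (adjusted p = 0.0159), a call lost with DESeq2 (adjusted p = 0.0811) and without any 1 of 4 libraries (E10.5 dorsal 1 or ventral 2, Ngn3-low dorsal 1 or ventral 1, adjusted p from 0.0642 to 0.074). Id2, at 212 to 374 CPM before, fell to 105 to 124 CPM (log2 fold change -1.25, SE 0.08, adjusted p = 5.23e-09), Id3 fell by 0.71 and Bmp4 by 2.34. Endothelial markers summed to 11.75 to 72.55 CPM at E10.5 and 262.9 to 830.1 CPM in Ngn3-low libraries, cardiac markers to 7.13 to 2210 and 1.363 to 2.292 CPM, and blood markers to 155.3 to 487.5 and 47.48 to 58.6 CPM. Their part in the differences was not tested. These sorts differ in reporter as well as in stage, which cannot be told apart.

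All 10 genes differed by Ngn3 reporter level at E14.5: in Ngn3-high cells 9 were lower than in Ngn3-low cells and Id4 was higher. Of all genes 70.8% passed, 33.8% as higher and 37% as lower. The median log2 fold change of the members was -2.28, against -0.01 over all genes. Bmp7 fell from 199 to 222 CPM to 23.1 to 28.4 CPM (log2 fold change -3.08, SE 0.06, adjusted p = 8.59e-15). Smad6 fell from 18.9 to 23.6 CPM to 1.83 to 3.25 CPM (-3.23, SE 0.20, adjusted p = 2.28e-09), and Smad7 fell by 1.40.

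Id3 had the steepest fall of the Id genes in this step, from 43.5 to 59.5 CPM to 4.52 to 6.13 CPM (log2 fold change -3.29, SE 0.13, adjusted p = 1.41e-11). Id1 fell by 1.63 to 15.53 to 16.51 CPM, and Id2 by 1.34 to 34.3 to 60.3 CPM. Id4 instead rose from 8.81 to 12.9 CPM to 12.2 to 22.1 CPM (log2 fold change 0.64, SE 0.15, adjusted p = 0.0018). Bmp2 fell by 0.90 and Bmp4 by 2.94, to at most 0.367 CPM. Bmper had 0 reads in both ventral Ngn3-high libraries and 0.0917 to 0.123 CPM in the dorsal ones, against 0.877 to 3.56 CPM in Ngn3-low libraries (adjusted p = 3.89e-06). Endothelial markers summed to 14.27 to 22.76 CPM in Ngn3-high and 262.9 to 830.1 CPM in Ngn3-low libraries, and mesenchyme markers to 283.8 to 344.4 and 867.9 to 1954 CPM. Their part in the differences was not tested.

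Of the 38 other pathway genes, 8 were higher and 19 lower in Ngn3-high cells, a share (71.05%) near that of all genes (70.8%). Of the 12 secreted or membrane inhibitors tested 4 were higher and 6 lower: Chrd (14.3 to 16.6 against 0.743 to 1.94 CPM, log2 fold change 3.59) and Cer1 (46.5 to 60.2 against 1.73 to 4.63 CPM, 4.22) rose, whereas Chrdl1, a relative of chordin (-4.48), and Fstl3, a follistatin-like protein (-2.51), fell. Co-receptors Rgma (-3.39) and Rgmb (-1.24) and the target Atoh8 (-3.13) fell as well.

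From Ngn3-high to E17.5 Ins1+ cells, 2 members rose and 5 fell, where 62% of all genes passed (32.1% higher, 29.9% lower). Id1 dropped from 15.53 to 16.51 CPM to 1.67 to 3.93 CPM (log2 fold change -2.72, SE 0.19, adjusted p = 2.01e-08). Id2 fell to 13.2 to 22.4 CPM (-1.37) and Bmp7 to 9.09 to 11.6 CPM (-1.34, SE 0.07, adjusted p = 9.67e-10), and Smad7 fell by 0.69. Bmp2 fell by 1.02 (adjusted p = 0.00881), a call lost without dorsal Ngn3-high library 1 (adjusted p = 0.0802). Id4 rose to 19.9 to 30.5 CPM (0.68, SE 0.15, adjusted p = 0.00119), and Id3 to 6.34 to 8.47 CPM (0.49, adjusted p = 0.0125). The Id3 call was lost without ventral Ngn3-high library 2, dorsal Ins1+ library 2 or ventral Ins1+ library 1 (adjusted p from 0.0526 to 0.0601). Mesenchyme markers summed to 283.8 to 344.4 CPM in Ngn3-high and 910.2 to 3042 CPM in Ins1+ libraries, endothelial markers to 14.27 to 22.76 and 35.55 to 97.67 CPM, and blood markers to 11.6 to 15.41 and 102.9 to 148.3 CPM. What these add to the differences was not tested.

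Per kilobase of gene model, Id2 was the most abundant member in 7 of the 8 bulk groups. In dorsal E10.5 cells it stood at 166.9 ± 0.354 CPM per kb (SD, n = 2), above Id3 (64.9 ± 6.18), Bmp7 (45.0 ± 2.21) and Id1 (38.9 ± 3.18), with the other members at 5.44 or below. In ventral E10.5 cells Id2 reached 286.7 ± 11.0 CPM per kb, followed by Id3 (66.8 ± 3.41), Id1 (49.2 ± 4.05) and Bmp7 (31.6 ± 0.955). The order had changed in dorsal Ins1+ cells, where Id4 (15.83 ± 3.599) and Id2 (12.5 ± 2.98) came before Id3 (5.36 ± 0.564). Id4 and Id2 there differed by less than the spread between libraries, as they did in ventral Ins1+ cells (15.1 ± 4.41 and 16.3 ± 1.93).

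In the Pdx1+ single cells of E9.5, edgeR called 0 of 10 members between the sides, as it did for 0% of all genes, and DESeq2 called 0. Unadjusted p was under 0.05 for 1 member, beside 273 of all 17433 genes. Both groups had 2 sets. Smad7 stood at 18.01 and 9.985 CPM in ventral and 2.31 and 1.61 CPM in dorsal sets (log2 fold change 2.84, SE 1.33, adjusted p = 1.0). Id2 (1243 and 1138 against 499.2 and 296.1 CPM), Id1 (273.5 and 219.6 against 209.4 and 73.3 CPM) and Id3 (299.3 and 429.2 against 152.7 and 125.0 CPM) also had ventral sets above both dorsal ones, without passing. With 2 sets against 2, groups without overlap are frequent by chance, and their share over all genes was not taken. Bmp7 stood at 62.7 and 51.0 CPM in ventral and 85.7 and 70.0 CPM in dorsal sets. Smad7 reached 10 CPM in 21 of 44 ventral cells (47.7%, 95% Clopper-Pearson interval 32.5 to 63.3%) and in 2 of 31 dorsal cells (6.45%, 0.791 to 21.4%). These intervals cover counting error only.

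In E10.5 Pdx1+ cells, 0 of 10 members passed with edgeR (0 also without dorsal set 3), beside 0.47% of all genes. Unadjusted p was under 0.05 for 1 member, beside 1575 of all 17433 genes. DESeq2 called 1, Smad7 (adjusted p = 0.0365). Smad7 stood at 22.4, 9.83 and 37.6 CPM in ventral sets and at 4.61, 3.88 and 0 CPM in dorsal ones, so the groups did not overlap (log2 fold change 3.01, SE 1.09, adjusted p = 0.33 with edgeR). Without dorsal set 3 it was 2.44 (adjusted p = 0.93). Bmp2 stood at 4.39, 4.24 and 0 CPM in ventral and 0, 0.342 and 0 CPM in dorsal sets. With 195 reads against 3, its ratio was 31.1 (exact counting interval 10.47 to 151.9), and the test over sets did not pass (log2 fold change without dorsal set 3 4.03, adjusted p = 1.0, against adjusted p = 0.692 with it). Bmp4 stood at 7.06, 9.05 and 0 CPM in ventral and 1.02, 0 and 0 CPM in dorsal sets (log2 fold change 3.94, adjusted p = 0.606, and 3.42 without dorsal set 3). Id2 was at 1194, 1124 and 582.8 CPM in ventral and 455.5, 741.3 and 105.8 CPM in dorsal sets (1.16, adjusted p = 0.654, and 0.69 without dorsal set 3). The set that stood apart had the lowest dorsal Bmp7 (0 CPM), Id1 (4.2 CPM) and Id3 (24.8 CPM).

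Between E9.5 and E10.5, 0 of 10 members passed with edgeR in dorsal Pdx1+ cells, beside 0.275% of all genes, and 0 of 10 in ventral ones, beside 0% of all genes. In both comparisons 0 members had unadjusted p under 0.05 and DESeq2 called 0. Of all 17433 genes, 1543 had unadjusted p under 0.05 in the dorsal and 379 in the ventral comparison. Without dorsal set 3 the dorsal count was also 0.

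**Figure D3:**
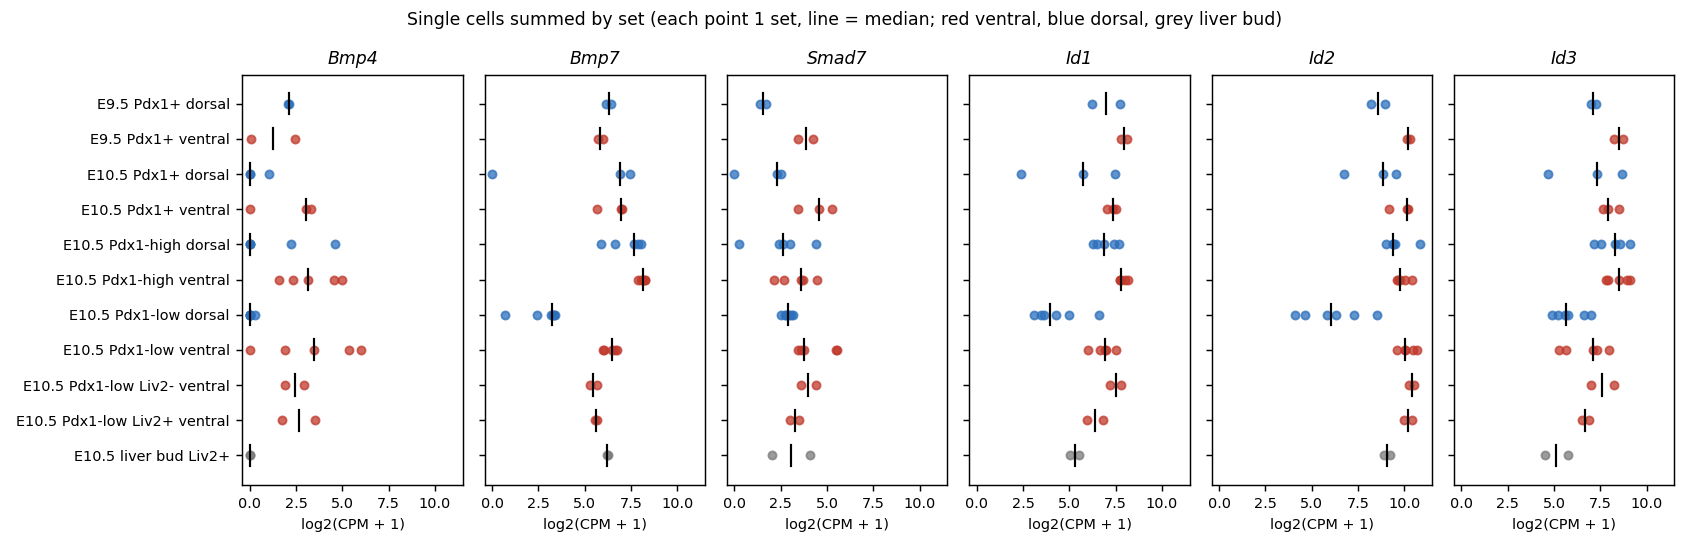
Log2(CPM + 1) of 6 genes in the 37 sets of single cells, with 1 point per set, a line at the group median and groups in rows (red ventral, blue dorsal, grey liver bud). Dorsal Pdx1-low sets hold Bmp7 at 0.628 to 9.45 CPM, below every other set but dorsal Pdx1+ set 3 (0 CPM), and both liver bud sets have Bmp4 at 0.

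Between the sides of Pdx1-high cells, edgeR called 0 of 10 members, beside 0.00574% of all genes, and DESeq2 called 0. Unadjusted p was under 0.05 for 2 members, beside 1847 of all 17433 genes. Bmp2 was read in 3 of 5 ventral sets (17.8, 13.8 and 5.13 CPM) and in 0 of 5 dorsal sets. Its 292 ventral reads against 0 make it at least 72.9-fold higher, from a floor of 3 reads over the dorsal group, but the test over sets did not pass (adjusted p = 0.32). The reads came from 4 of 39 ventral cells, 1 of which held 56.2% of the summed CPM. Amplified reads are not independent molecules, so this and every other ratio or bound from reads covers read counting only, not the spread between cells or sets. Bmper had 102 reads in 3 of 5 dorsal sets and 0 in ventral ones (at least 45.4-fold higher in dorsal cells, adjusted p = 0.286), from 3 of 28 cells. Id1 stood at 210.0 to 287.6 CPM in ventral and 77.4 to 202.9 CPM in dorsal sets, without overlap (log2 fold change 0.87, SE 0.58, adjusted p = 0.688). Id2 ranged from 781.4 to 1382 CPM and from 507.8 to 1836 CPM, and Bmp7 from 233.6 to 306.3 CPM and from 58.7 to 260.3 CPM.

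In Pdx1-low cells 4 of 10 members were higher in ventral sets and 0 lower, where 24.9% of all genes passed (13.9% higher, 11% lower). The sorted cells differed in kind: endocrine markers summed to 25760 to 54630 CPM in dorsal and 7.734 to 152.0 CPM in ventral sets, and their part in the differences was not tested. Bmp7 stood at 62.0 to 105.2 CPM (median 86.2) in the 5 ventral and 0.628 to 9.45 CPM in the 6 dorsal sets (log2 fold change 3.61, SE 0.65, adjusted p = 0.000122). Id2 stood at 769.7 to 1629 against 16.4 to 371.1 CPM (3.35, SE 0.54, adjusted p = 2.99e-05). Neither gene's groups overlapped.

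Id1 was at 63.9 to 180.6 CPM in ventral and 7.42 to 96.95 CPM in dorsal Pdx1-low sets (log2 fold change 2.02, SE 0.56, adjusted p = 0.00861), with dorsal set 3 inside the ventral range. Bmp4 stood at 9.93, 40.1, 2.70, 0 and 63.5 CPM in ventral sets, whereas 1 read was counted over the 6 dorsal ones (1306 reads against 1, ratio 1472, exact counting interval 263.7 to 58170, adjusted p = 0.00131). A single cell of 632.5 CPM made up 60.3% of the summed Bmp4 of the 39 ventral cells. Without ventral set 6, which held mesenchyme RNA, Bmp4 still passed (adjusted p = 0.0039), as did Bmp7, Id1 and Id2. Smad7 did not pass (9.89 to 45.1 against 4.67 to 8.10 CPM, log2 fold change 1.94, SE 0.76, adjusted p = 0.0585), though its groups did not overlap and DESeq2 called it (adjusted p = 0.0299). Id3 overlapped between sides (37.5 to 246.1 against 29.2 to 125.8 CPM, adjusted p = 0.15). Smad6 (mean 2.23 CPM per kb in ventral against 0.579 in dorsal sets) and Id4 (0.680 against 3.88 CPM per kb) did not pass either.

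Of the 34 other pathway genes tested in cells, 5 were higher and 3 lower in ventral Pdx1-low cells, a share (23.5%) near that of all genes (24.9%). Of the 12 inhibitors tested, 3 were higher and 3 lower in ventral cells. Chrd (10.1 to 31.1 CPM in dorsal and at most 0.0624 in ventral sets), Cer1 (0 to 23.8 against at most 0.240 CPM) and Twsg1 (227.1 to 495.5 against 112.6 to 224.4 CPM) were higher in dorsal cells. The inhibitor Fstl1 (193.1 to 333.0 against 10.52 to 207.0 CPM) was among those higher in ventral cells. The ligand Bmp8b (0.201 to 31.5 against at most 0.264 CPM) and the target Msx2 (up to 7.18 CPM against 0) were also higher there.

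On the dorsal side, Pdx1-high cells had 6 of 10 members higher than Pdx1-low cells and 0 lower, where 23.9% of all genes passed (12.9% higher, 11% lower). This comparison shares the dorsal Pdx1-low sets with the one above. Bmp7 stood at 58.7 to 260.3 CPM in the high sets (log2 fold change 4.66, SE 0.68, adjusted p = 1.2e-05), Id2 at 507.8 to 1836 CPM (2.92, SE 0.53, adjusted p = 0.000172), Id3 at 144.1 to 547.0 against 29.2 to 125.8 CPM (2.29, SE 0.51, adjusted p = 0.0016) and Id1 at 77.4 to 202.9 CPM (2.17, SE 0.56, adjusted p = 0.00567). Bmp7, Id2 and Id3 had no overlap between the sorts. Bmp4 (3.72, 0, 0, 0 and 23.1 CPM in the high sets) had 123 reads against 1 (ratio 223.2, 39.3 to 8885, adjusted p = 0.00889) and lost its call without Pdx1-high set 6 (adjusted p = 0.0675). Bmper had 102 reads against 1 (ratio 185.1, 32.5 to 7380, adjusted p = 0.0283) and lost its call without Pdx1-low set 1, 2, 5 or 6 (adjusted p from 0.0509 to 0.0575). Both calls were also lost with sets of 5 or more cells (adjusted p = 0.176 for Bmp4 and 0.0742 for Bmper). Bmp2 was read in 1 dorsal Pdx1-low cell and in 0 Pdx1-high cells.

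On the ventral side, endocrine markers summed to 10.16 to 160.6 CPM in high and 7.734 to 152.0 CPM in low sets. There edgeR called 0 of the 9 members tested between Pdx1-high and Pdx1-low cells, beside 0.952% of all genes, and DESeq2 called 0. Unadjusted p was under 0.05 for 2 members, beside 2308 of all 17433 genes. Bmper had 0 reads in both. Bmp7 stood at 233.6 to 306.3 CPM in high and 62.0 to 105.2 CPM in low sets, without overlap (log2 fold change 1.73, SE 0.64, adjusted p = 0.21). Id3 stood at 220.4 to 539.4 against 37.5 to 246.1 CPM (1.55, SE 0.53, adjusted p = 0.18).

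**Figure D4:**
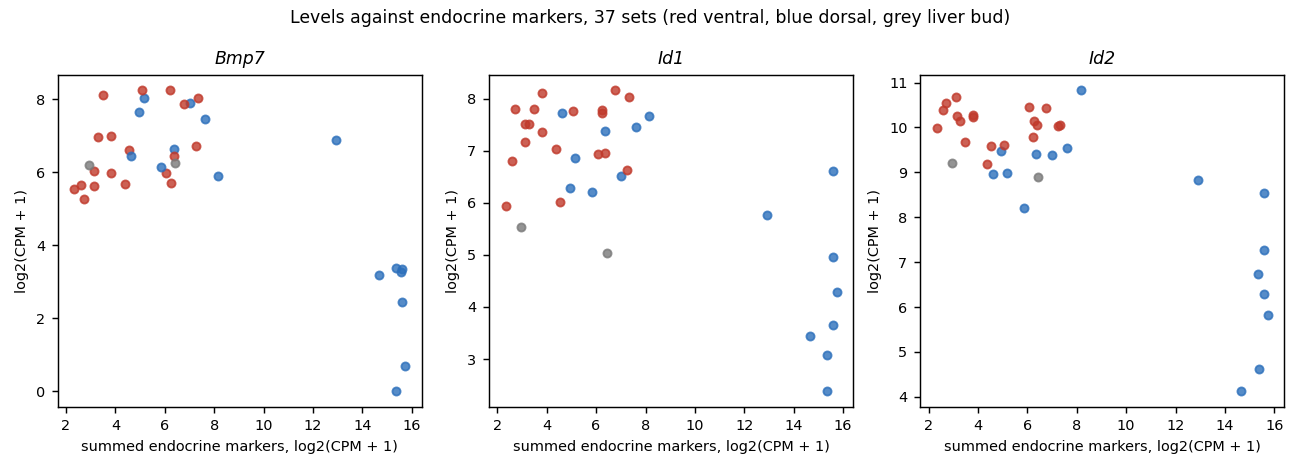
Log2(CPM + 1) of Bmp7, Id1 and Id2 against the summed endocrine markers in the 37 sets (red ventral, blue dorsal, grey liver bud). The 6 dorsal Pdx1-low sets and dorsal Pdx1+ set 3, at 25760 CPM or more of endocrine markers, hold Bmp7 at 0 to 9.45 CPM and Id2 at 16.4 to 371.1 CPM.

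Liv2 marks liver precursor cells. Between the Liv2 sorts of ventral Pdx1-low cells, with 2 sets each, edgeR called 0 of the 9 members tested, as for 0% of all genes. DESeq2 called 0, and 0 members had unadjusted p under 0.05, beside 203 of all 17433 genes. Id1 stood at 60.2 and 110.9 CPM in Liv2+ and 143.5 and 223.1 CPM in Liv2- sets (log2 fold change -1.10, SE 0.91), and Id3 at 88.65 and 116.5 against 124.7 and 299.8 CPM (-1.05, SE 0.83). Id2 stood at 1014 and 1345 against 1231 and 1483 CPM. Hepatoblast markers summed to 7921 to 9478 CPM in Liv2+ and 2347 to 2764 CPM in Liv2- sets.

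Liver bud cells held hepatoblast markers at 33010 to 45510 CPM. Against ventral Pdx1-high cells 1 of 10 members passed with edgeR, where 5.52% of all genes passed. Unadjusted p was under 0.05 for 6 members, beside 3265 of all 17433 genes. The member that passed was Id3, at 53.3 and 21.5 CPM against 220.4 to 539.4 CPM (log2 fold change -3.31, SE 0.85, adjusted p = 0.0157). The call was lost without liver bud set 1 (-4.04, adjusted p = 0.0703) or set 2 (-2.77, adjusted p = 0.344). Id1, at 45.5 and 31.7 CPM against 210.0 to 287.6 CPM, did not pass (adjusted p = 0.0771) but did with DESeq2 (adjusted p = 0.00454) and with sets of 5 or more cells (adjusted p = 0.0252). Bmp4 had 0 reads in the liver bud and 463 in Pdx1-high cells, at least 128.8-fold higher there from a floor of 3 reads over the liver bud sets (adjusted p = 0.0828), and Bmp2 0 against 292 (at least 81.2-fold, adjusted p = 0.223). These bounds cover read counting only: the Pdx1-high reads came from 8 of 39 cells for Bmp4 and 4 of 39 for Bmp2. Against ventral Pdx1-low Liv2+ cells edgeR called 0 of 10 members, beside 0.562% of all genes, and DESeq2 called 1, Bmp4. Unadjusted p was under 0.05 for 1 member, beside 1272 of all 17433 genes. Id2 stood at 587.5 and 472.5 CPM in the liver bud, and Bmp7 at 72.2 and 75.4 CPM. Among the other pathway genes, Chrd was higher in the liver bud than in Pdx1-high cells (3.19 and 4.11 CPM against 0), and Rgma, Rgmb, Fstl1 and Bambi were lower.

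**Figure D5:**
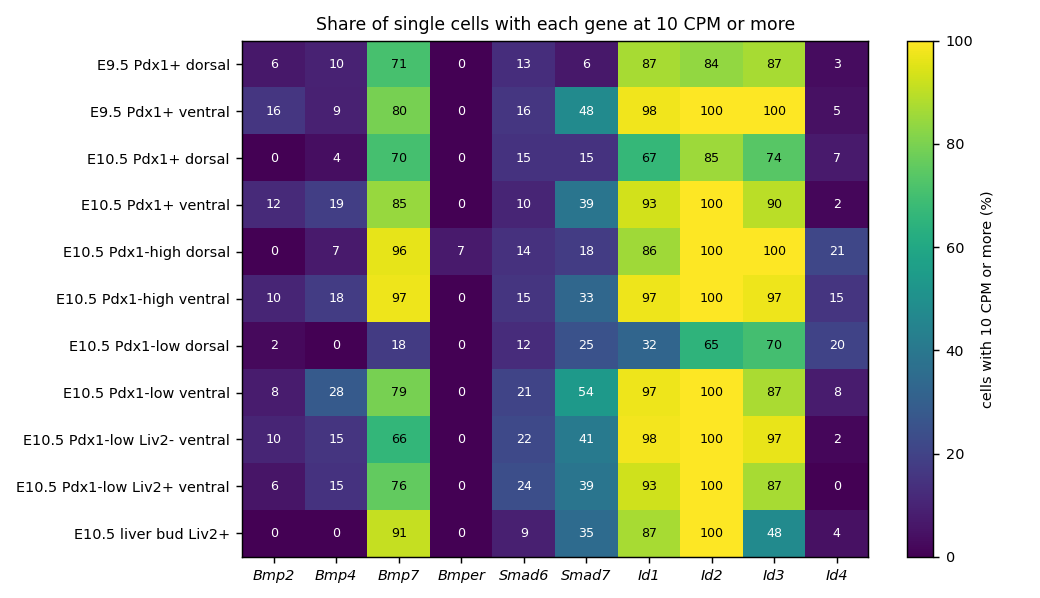
Percent of single cells with each gene at 10 CPM or more, by group (rows) and gene (columns), with the rounded percent in each field. Id2 is at 100% in all ventral groups, dorsal Pdx1-high cells and the liver bud and at 65% in dorsal Pdx1-low cells, and Bmp2 and Bmp4 reach at most 15.9% and 28.2%.

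Single cells showed in how many cells each transcript was detected at 10 CPM or more. Id2 reached 10 CPM in every cell of the 5 ventral E10.5 groups, of ventral E9.5, of dorsal Pdx1-high and of the liver bud, and among dorsal Pdx1-low cells in 26 of 40 (65.0%, 48.3 to 79.4%). Bmp7 reached it in 7 of 40 cells of the dorsal Pdx1-low sort (95% interval 7.34 to 32.8%) and in 66.1 to 97.4% of the cells of every other E9.5 and E10.5 group. Id1 reached it in 13 of 40 cells of that sort (32.5%, 18.6 to 49.1%) and 38 of 39 ventral Pdx1-low ones (97.4%, 86.5 to 99.9%). Id3 reached it in 11 of 23 liver bud cells (47.8%, 26.8 to 69.4%), against 38 of 39 ventral Pdx1-high cells.

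The ligands Bmp2 and Bmp4 reached 10 CPM in a minority of cells in each group. The share depends on the cut: in ventral E10.5 Pdx1+ cells it was 11.9% for Bmp2 and 18.6% for Bmp4 at 10 CPM. With any read it was 25.4% and 28.8%. A transcript missed in a cell cannot be told from an absent one. Bmp2 reached 10 CPM in 5.56 to 15.9% of cells in the ventral groups. On the dorsal side it did so in 2 of 31 E9.5 cells (6.45%) and 1 of 40 Pdx1-low cells (2.5%). It did so in 0 of 27 dorsal E10.5 Pdx1+ cells, 0 of 28 dorsal Pdx1-high cells (a limit of 10.7% from a count of 0) and 0 of 23 liver bud cells (limit 13.0%). Bmp4 reached it in 11 of 39 ventral Pdx1-low cells (28.2%, 15.0 to 44.9%), in 0 of 40 dorsal Pdx1-low cells (limit 7.5%) and in 0 of 23 liver bud cells. At E9.5 it did so in 3 of 31 dorsal (9.68%) and 4 of 44 ventral cells (9.09%). Among Pdx1-high cells it did so in 2 of 28 dorsal (7.14%) and 7 of 39 ventral ones (17.95%). In ventral Pdx1+ cells of E10.5, all 7 cells with Bmp2 and all 11 with Bmp4 had Epcam or Cdh1 at 10 CPM or more. Median cardiac markers there were 2.32 CPM in the cells with Bmp2 and 10.8 CPM in those with Bmp4, against 1.86 and 0.842 CPM in the remaining cells. Median mesenchyme markers were 206.4 CPM with Bmp2 and 155.4 CPM with Bmp4, against 182.8 and 199.8 CPM in the remaining cells. Median biliary markers were 491.7 and 636.6 CPM, against 324.5 and 315.7 CPM. In ventral Pdx1-low cells 9 of the 11 cells with Bmp4 had Epcam or Cdh1 at that level, and the 11 had median mesenchyme markers of 217.4 CPM, against 110.6 CPM in the remaining cells. Their median cardiac markers were lower (2.66 against 7.64 CPM) and their biliary markers higher (973.3 against 738.3 CPM). These medians were not tested.

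Across the 37 sets, which share depth and sort, log2 CPM of Id1 correlated with that of Id2 (Pearson r 0.86), Id3 (0.82) and Bmp7 (0.75), and Id2 with Id3 (0.61), while Id4 stood at -0.37 with Id2. Without dorsal Pdx1+ set 3, over 36 sets, Id1 stood at 0.88 with Id2, 0.80 with Id3 and 0.67 with Bmp7, Id2 at 0.58 with Id3, and Id4 at -0.36 with Id2. Within the E9.5 and E10.5 groups, Id1 and Id3 had r from 0.26 (39 ventral Pdx1-high cells) to 0.86 (27 dorsal Pdx1+ cells, 0.83 in the 21 without set 3). Over 8526 genes with a mean log2 CPM of 3 or more, the most alike to Bmp7 were Slc38a4 (r 0.92), Sirpa (0.91) and Hes1 (0.90), to Id2 were Habp2 (0.92) and Stmn1 (0.92), to Id1 were Ctnna1 (0.87) and Stmn1 (0.87), and to Id3 was Arhgap28 (0.87). The closest genes to Bmp2, Bmper and Id4 had r of 0.63, 0.55 and 0.61 (0.62, 0.55 and 0.62 without dorsal Pdx1+ set 3). Without that set the r of Slc38a4, Sirpa and Hes1 with Bmp7 was 0.89, 0.89 and 0.86, that of Habp2 and Stmn1 with Id2 0.92 and 0.92, that of Ctnna1 and Stmn1 with Id1 0.85 and 0.85, and that of Arhgap28 with Id3 0.88.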

How the data were processed

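The authors deposited tables of read counts per gene for 16 bulk libraries and 447 single cells. Per the submitters' processing notes, TopHat2 2.1.0, Bowtie2, HTSeq 0.6.0 and GRCm38 (mm10) were used, and the strand setting is not given in the sources used here. Deposited RPKM tables were not used. The 92 spike-ins were left out. Single cells were summed within each numbered set, keeping those with at least 3 cells. Values are CPM after edgeR's TMM scaling. Comparisons used edgeR 4.0.16 (quasi-likelihood test, R 4.3.3) over all genes that passed edgeR's filter on low counts (17690 bulk, 17433 cell sets), with Benjamini-Hochberg adjustment and a threshold of 0.05. All 16 bulk libraries shared 1 fit, and the 37 cell sets another. Alternatives were DESeq2 1.42.0, RLE size factors, no filter, a replicate block, a minimum of 5 cells per set, epithelial cells only, thinning, and leaving out each library or set. The model was checked on simulated counts. All members are given by value for the bulk sides at E10.5 and for Ngn3-high against Ngn3-low cells. Other comparisons give some members by value and the rest only within the count. Other pathway genes are named as up to 4 of each role with the smallest adjusted p, and like genes by the 3 highest correlations. The members, lists and rules were chosen with earlier results of these data known. Set numbers follow the labels, and 25 ventral E9.5 cells whose growth protocol describes human stem cells were kept as mouse.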

Additional observations from a re-analysis of the deposited data

Results flagged for a closer look

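Each member was checked within the single-cell groups of 5 or 6 sets, 37 checks in all, and in 8 of them 1 set lay far from the others. A chance rate of about 1 in 20 does not hold for genes at 0 in most sets, so the 8 are not read as an excess. Among dorsal Pdx1-low sets these were Bmp2 at 14.2 CPM (1 cell), Bmp4 at 0.209 CPM and Bmper at 0.222 CPM (1 read each), and Id1 at 96.95 CPM in set 3. Among dorsal Pdx1-high sets they were Bmp4 at 23.1 CPM in set 6, Smad6 at 13.8 CPM in set 1 and Id2 at 1836 CPM in set 4. Bmp2 at 24.95 CPM stood apart in ventral Pdx1-low set 5. In dorsal Pdx1-low cells, Bmp2, Bmp4 and Bmper each had reads in only 1 of the 6 sets, so any reads made that set stand apart.

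The side difference at E10.5 departed from the mean of the later bulk sorts, by the edgeR test of that difference, for 7 genes: Bmp2 by 3.00, Bmp4 by 2.79, Smad6 by 1.25, Smad7 by 1.32, Id2 by 0.42, Bmp7 by -0.36 and Id4 by -1.12 on the log2 scale. Cardiac, mesenchyme and hepatoblast RNA was higher in the E10.5 ventral libraries than in the dorsal ones, and its part in these values was not tested. The Bmp4 value rests in part on few reads in Ngn3-high and Ins1+ libraries.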

How the results depend on the processing

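No called member changed sign under any alternative run. Among members that had not passed, 104 retests changed sign and 1544 did not, and 0 of the 104 passed: Bmp7 between the sides of E10.5 Pdx1+ cells, for example, went from 0.04 to -0.54 without dorsal set 3 (log2 scale), and Id3 from 0.45 to -0.08. RLE size factors, cells restricted to Epcam or Cdh1 at 10 CPM, and, but for E14.5 Ngn3-low, no filter on low counts left every count of called members within 1.5 times. Between the sides of Ngn3-low cells the count was 1 with no filter (Bmp4, adjusted p = 0.00299) against 0, beside 137 against 3 calls over all genes. DESeq2 called 1 against 0 in E10.5 Pdx1+ cells and in liver bud against Liv2+ cells, and 3 against 1 in liver bud against ventral Pdx1-high cells, where sets of 5 or more cells gave 2. Calls over all genes rose as well. With DESeq2 they were 326 against 82, 461 against 98 and 2003 against 963 in these 3 comparisons, and 1576 with sets of 5 or more cells in the last. Why these differ was not tested. Leaving out each library in turn gave 0 called members each time between the sides of Ngn3-high cells and 2 to 7 for E10.5 minus later sorts, and leaving out each set gave 0 to 1 for liver bud against Pdx1-high cells. Of the called members retested without 1 library or set, 44 tests lost the call and 407 kept it.

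The replicate numbers were also used as a block, although the labels do not say that they pair samples. Same-numbered bulk libraries of the 2 sides deviated from their group means together (r from 0.29 to 0.77 over the sorts). With 2 libraries in a group the deviations mirror each other, so each sort gives only 1 independent r. Same-numbered cell sets had r from -0.11 to 0.24 over 3 to 5 numbers, which cannot be compared in size with the bulk values. Between the sides, 5 of 6 sets correlated best with their own number in Pdx1+ cells (3 numbers). So did 6 of 10 in Pdx1-high and 7 of 10 in Pdx1-low cells (5 numbers each). Between Pdx1-high and Pdx1-low cells 5 of 8 ventral (4 numbers) and 2 of 10 dorsal sets (5 numbers) did so. If the numbers paired nothing, 1 set in 3 would match by chance with 3 numbers, and 1 in 5 with 5 numbers. With the replicate block the dorsal Pdx1-high against Pdx1-low comparison called 4 members against 6, without Bmp4 (adjusted p = 0.108) and Bmper (adjusted p = 0.0979), and it moved no other count by over 1.5 times. A replicate block within each bulk sort, chosen after seeing the data, called 2 members against 1 between the sides of Ngn3-high cells, adding Id4 (adjusted p = 0.00389), 1 against 0 in Ngn3-low cells (Bmp4, adjusted p = 0.02), and Id1 at E10.5 (adjusted p = 0.0136). Over all genes that block called 511 against 86 in Ngn3-high and 139 against 3 in Ngn3-low cells.

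Thinning each cell to 200000 reads moved 2 shares and left 108 within their interval: Id1 in ventral E9.5 cells from 97.7 to 100% and Id4 in dorsal E9.5 cells from 3.23 to 0%. Counts in sets of few cells limit Bmp2, Bmp4, Bmper and Id4. In simulated counts, 4-fold changes were placed in 200 genes drawn from all that passed the filter. Of these, 31.1% were recovered between the sides of Pdx1-low cell sets and 81.3% between the sides of E10.5 bulk libraries. The simulation did not separate genes by level, so these shares are not specific to these 4 members.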

Other observations

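The 4 cells from E15.5 liver, which formed no set of their own comparison, all held Id2, at 30.01 to 191.9 CPM (median 64.85). Id3, Id4, Bmp2, Bmp4 and Bmper had 0 reads in all 4, Bmp7 reached at most 5.30 CPM and Smad7 at most 2.02 CPM. Id1 and Smad6 reached 10 CPM in 2 of the 4 cells each, up to 24.7 and 29.35 CPM.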
